A study of Mus musculus with 6 samples.

Results

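The genes described here build and run the mitotic spindle and segregate the chromosomes. They are 50 named mouse genes, from mitotic kinases and cyclins to kinesins, kinetochore proteins and condensin. They were found by gene symbol among 12394 genes read on Affymetrix arrays of regulatory T (Treg) cells. Each gene was read by its own probe sets, meaning those annotated to that symbol alone, and of these the one brightest on average was used. By this rule 48 of the 50 were measured, while Ccnb1 and Espl1 were not analysed here.

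Cells enter mitosis when the kinase Cdk1, bound to a B-type cyclin, becomes active. The chromosomes condense, kinetochores capture spindle microtubules under the watch of the spindle checkpoint, and the anaphase-promoting complex then releases the sister chromatids and ends the Cdk1 activity. Most of these genes are transcribed late in the cell cycle and are low in resting lymphocytes, so that in blood and lymphoid cells their transcripts serve as markers of dividing cells. Treg cells, CD4 T cells that restrain immune responses through the transcription factor Foxp3, hold a fraction that divides in the resting animal.

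The Treg cells were sorted as CD4+CD25+YFP+ cells from spleen and lymph nodes, 3 mice in each group. Mice of the Gata3-deficient group were Gata3F/FFoxp3YFP-Cre, with both alleles of the transcription factor gene Gata3 floxed. Mice of the Gata3-sufficient group, titled WT, were Gata3F/+Foxp3YFP-Cre and carried a single floxed allele. All 6 mice thus carried the fusion of YFP and Cre recombinase made from Foxp3, so that Cre acts in cells that have switched Foxp3 on. The controls were heterozygous for the floxed allele, and neither age nor sex was stated in the labels. Values are log2 intensities.

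Array medians lay between 6.06 and 6.11, and precision is bounded by having 6 arrays. Gata3 did not check the labels, since its single probe set read higher in the Gata3-deficient arrays, by 0.35 ± 0.07 (log2 change ± SE, adjusted p = 0.0387 by limma; up to 0.182 with 1 array left out). A probe set outside the deleted part checks nothing, and the labels do not say which part was deleted, so every direction below rests on them. Of the 10 T cell and Treg markers, Cd3d, Cd3e, Cd3g, Cd4, Cd247, Il2ra, Ctla4 and Tnfrsf18 were well read (means from 8.03 to 12.85), and Ikzf2 lay lower (6.83 and 6.92). None of the 10 reached an adjusted p under 0.05 by limma. Every Gata3-deficient array was higher in Il2ra (0.20), Ctla4 (0.22) and Ikzf2 (0.09), 30% of the list against 11.3% of all genes. In Cd247 (-0.17) every one was lower. The Foxp3 probe set was dim in both groups (3.90 ± 0.05 and 3.94 ± 0.12, SD, n = 3 each). A gene is called dim here when its mean lay below 5.55, the 40th percentile of all gene means.

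Mitosis genes as a group were higher in the Gata3-deficient arrays, by amounts that were small for most of them. The 9 that rose were Birc5, Top2a, Mki67, Ccnb2, Aurkb, Kif22, Stmn1, Cks1b and Cks2, with increases from 1.30-fold to 1.73-fold. Only Smc4, a core subunit of condensin, fell, by 0.32 on the log2 scale. These 9 of 48 make 18.8% of the measured genes, where 1.44% of all genes tested were higher at an adjusted p under 0.05. The 1 lower gene makes 2.08%, against 0.766% of all genes, and 2.21% of all genes were called in either direction. A positive change was seen in 43 of the 48, against 53% of all genes, and the median change was 0.24, against 0.0078 over all genes. In 20 of the 48 every Gata3-deficient array read above every Gata3-sufficient one (41.7%, against 11.3% of all genes), and in 2 every one read below (4.17%, against 8.51%). Cells were measured in bulk, so more dividing cells in the sort and more transcript per cell cannot be told apart.

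**Figure D1:**
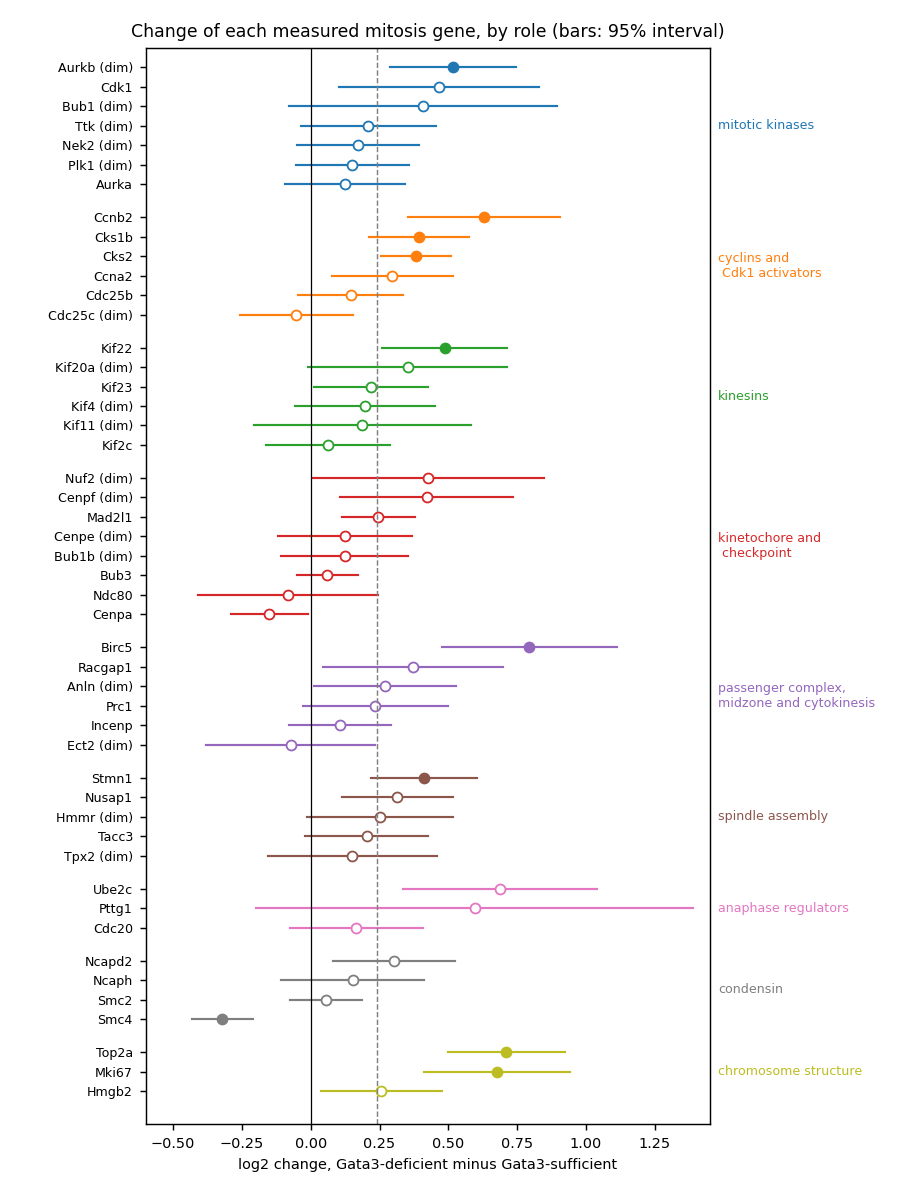
Log2 change (Gata3-deficient minus Gata3-sufficient, n = 3 arrays each) of the 48 measured mitosis genes, grouped by role, with 95% intervals from limma. Filled points passed an adjusted p of 0.05, the dashed line is the median of 0.24, and only Smc4 of the filled points lies below 0.

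The number of calls moved with single arrays. Without sufficient replicate 3 the same 9 genes passed, with the ubiquitin-conjugating enzyme gene Ube2c as a further one. Without sufficient replicate 1, 5 were higher (Birc5, Cks2, Mki67, Pttg1 and Top2a). Without deficient replicate 1, 5 were higher as well (Birc5, Ccnb2, Cks2, Mki67 and Top2a). Without sufficient replicate 2 only Mki67 and Top2a were called, without deficient replicate 2 only Top2a, and without deficient replicate 3 only Top2a was higher. Smc4 kept its call except without sufficient replicate 2 (adjusted p = 0.0548) or deficient replicate 2 (0.061). The median change kept its sign and lay between 0.20 and 0.28 in these 6 fits. Without limma's intensity trend Top2a alone was called (adjusted p = 0.0409), and the other 9 called genes had adjusted p from 0.0629 to 0.15. With the mean of all probe sets of a gene, Birc5, Ccnb2, Cks2, Mki67 and Top2a kept their calls as higher. With probe sets left out whose suffix marks several transcripts or related sequences, Ccnb2, Cks2 and Mki67 did, Aurkb and Birc5 had no probe set left, and Top2a, Kif22, Stmn1 and Cks1b were measured without passing.

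Of the 3 genes of chromosome structure, 2 rose, Top2a and Mki67, and the role had the largest median, 0.68. Top2a encodes topoisomerase II alpha, which untangles sister chromatids. It read 7.31, 7.11 and 7.36 in the Gata3-sufficient arrays and 7.83, 7.93 and 8.14 in the Gata3-deficient arrays. The groups did not overlap, and Top2a rose 1.64-fold (log2 change 0.71 ± 0.10, SE, adjusted p = 0.00731), a call kept with each array left out in turn (adjusted p up to 0.0405). On its remaining probe set without such a suffix, which was dim, the change was 0.21 and did not pass (adjusted p = 0.504). Mki67 encodes Ki-67, the coat protein of mitotic chromosomes used to stain cycling cells. It read 7.48, 7.14 and 7.68 against 8.05, 8.10 and 8.18. The Gata3-deficient arrays lay close together while the Gata3-sufficient ones were spread, and Mki67 rose 1.60-fold (0.68 ± 0.12, adjusted p = 0.0219; up to 0.0876 with 1 array left out). Hmgb2, a DNA-bending chromatin protein, differed by 0.26, short of the threshold (adjusted p = 0.259), without overlap. Its Gata3-deficient replicate 1, at 10.54, stood above replicates 2 and 3, at 10.12 and 10.14.

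**Figure D2:**
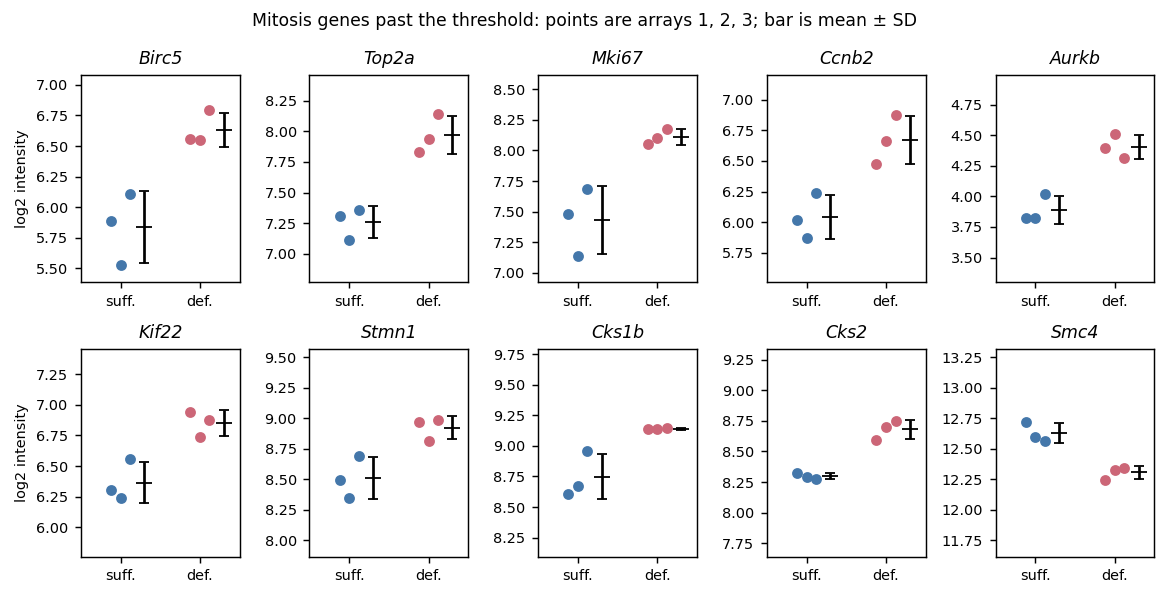
Log2 intensity of the 10 mitosis genes past the threshold on each of the 3 Gata3-sufficient (blue) and 3 Gata3-deficient (red) arrays, with mean ± SD. All panels span the same range of 1.7 log2 units, and in none do the groups overlap.

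Promoters of late cell cycle genes are known to carry CCAAT boxes, bound by NF-Y, and the cell cycle homology region (CHR), bound by MuvB complexes with DREAM, B-Myb and FoxM1. Both were looked for as a description only. The shares below belong to the chosen list and draw on no array value, and matches were not tested against the changes. The 250 bases upstream of the start site were taken from the RefSeq promoter table (GRCm38.p6), which held 42 of the 50 genes and 7 of the 10 called ones. The words TTTGAA and TTCGAA (CHR) and CCAAT were searched on both strands, the palindrome TTCGAA counted once. The windows of the 4 called genes with the largest increase that had one are printed 5′ to 3′ along the gene, with matches in capitals.
Top2a, chr11:99024190-99024439, minus strand: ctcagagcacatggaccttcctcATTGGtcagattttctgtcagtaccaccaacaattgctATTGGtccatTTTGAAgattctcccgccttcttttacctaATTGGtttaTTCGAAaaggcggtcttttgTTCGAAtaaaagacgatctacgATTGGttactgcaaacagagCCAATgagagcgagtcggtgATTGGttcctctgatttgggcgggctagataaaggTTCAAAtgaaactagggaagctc
Mki67, chr7:135716380-135716629, minus strand: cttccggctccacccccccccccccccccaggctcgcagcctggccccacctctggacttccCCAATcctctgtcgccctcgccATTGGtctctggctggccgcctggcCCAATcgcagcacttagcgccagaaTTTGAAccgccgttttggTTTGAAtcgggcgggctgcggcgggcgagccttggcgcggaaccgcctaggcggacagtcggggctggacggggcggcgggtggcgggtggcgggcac
Ccnb2, chr9:70421555-70421804, minus strand: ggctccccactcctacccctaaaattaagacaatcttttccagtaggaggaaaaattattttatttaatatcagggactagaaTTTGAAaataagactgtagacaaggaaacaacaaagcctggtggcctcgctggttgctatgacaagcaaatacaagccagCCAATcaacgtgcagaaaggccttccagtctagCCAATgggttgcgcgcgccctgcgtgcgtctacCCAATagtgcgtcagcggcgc
Birc5, chr11:117848987-117849236, plus strand: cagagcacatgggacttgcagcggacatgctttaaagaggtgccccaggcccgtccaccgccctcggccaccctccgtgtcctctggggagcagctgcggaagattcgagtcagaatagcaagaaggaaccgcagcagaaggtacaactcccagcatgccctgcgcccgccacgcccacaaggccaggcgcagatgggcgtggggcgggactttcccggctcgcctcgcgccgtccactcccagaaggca
The Top2a window held 6 CCAAT matches and 4 CHR matches, that of Mki67 3 and 2, that of Ccnb2 3 and 1, and that of Birc5 0 and 0. A CCAAT match was present in 32 of the 42 windows (76.2%), against 34.5% of 27025 windows of the same length. Those are the windows of all genes in the promoter table, read on the arrays or not. A CHR match was present in 17 (40.5%), against 17.4%, and both in 16 (38.1%), against 6.21%. Among the other called genes, Cks1b had 4 CCAAT and 2 CHR matches, Kif22 had 2 and 2, and Cks2 had 2 and 0. Matches were also present where no change was called, with 6 CCAAT and 1 CHR in Ube2c and 3 and 2 in Cdk1. A match is a description of letters in a window, and the absence of one in Birc5 says only that these words are not in those bases.

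Among the 7 mitotic kinases every change was positive and only Aurkb passed (median 0.21). Aurkb encodes Aurora B, the kinase of the chromosomal passenger complex that corrects faulty attachments. It read 3.82, 3.82 and 4.02 in the Gata3-sufficient arrays and 4.40, 4.51 and 4.31 in the Gata3-deficient ones. No overlap was seen, and the log2 change was 0.52 ± 0.10 (SE, adjusted p = 0.0375; up to 0.181 with 1 array left out), but on a dim probe set. Cdk1, the kinase that drives entry into mitosis, read 5.67, 5.26 and 5.96 against 6.19, 5.93 and 6.16. Gata3-deficient replicate 2 overlapped with Gata3-sufficient replicate 3, and the change of 0.47 did not pass (adjusted p = 0.202). Bub1, a checkpoint kinase, changed by 0.41 with Gata3-deficient arrays from 4.65 to 5.64, and did not pass (adjusted p = 0.443). Ttk (0.21), which starts checkpoint signalling, Nek2 (0.17), a centrosome kinase, Plk1 (0.15), the polo kinase, and Aurka (0.13), the spindle pole kinase Aurora A, did not pass either. Of these 7 genes 5 were dim, with Cdk1 and Aurka the exceptions.

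The cyclins and Cdk1 activators held 3 of the 9 called increases among 6 measured genes. Ccnb2, the gene of cyclin B2, read 6.02, 5.87 and 6.23 against 6.48, 6.66 and 6.87. All Gata3-deficient arrays were higher, and Ccnb2 rose 1.55-fold (0.63 ± 0.12, SE, adjusted p = 0.0358; up to 0.168 with 1 array left out). The gene pair Cks1b and Cks2 encodes small Cdk-binding proteins. Cks1b read 8.61, 8.67 and 8.96 against 9.13, 9.14 and 9.15. The Gata3-deficient arrays were nearly equal (SD 0.0070), and Cks1b rose 1.31-fold (0.39 ± 0.08, adjusted p = 0.0417; up to 0.195 with 1 array left out). Cks2 read 8.32, 8.29 and 8.28 against 8.59, 8.70 and 8.75. Both groups were tight, and Cks2 rose 1.30-fold (0.38 ± 0.06, adjusted p = 0.0116; up to 0.0651 with 1 array left out). Ccna2, the gene of cyclin A2, differed by 0.30 without overlap (adjusted p = 0.178). Of the Cdc25 phosphatases that switch Cdk1 on, Cdc25b changed by 0.15 and the dim Cdc25c by -0.05 (95% interval from -0.26 to 0.15), and neither passed.

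Of the 6 kinesins, motor proteins of the spindle, all had a positive change and Kif22 passed. Kif22, the chromokinesin that pushes chromosome arms outward, read 6.30, 6.23 and 6.56 against 6.94, 6.74 and 6.87. Without overlap between the groups, Kif22 rose 1.40-fold (0.49 ± 0.10, SE, adjusted p = 0.0425; up to 0.195 with 1 array left out). Kif23, a motor of the spindle midzone, read 6.04, 5.87 and 6.00 against 6.09, 6.18 and 6.29. It did not overlap either, but its change of 0.22 did not pass (adjusted p = 0.314). Kif20a (0.35), a kinesin of cytokinesis, Kif4 (0.20), a chromokinesin, and Kif11 (0.19), which separates the spindle poles, were dim and did not pass. Kif2c, a microtubule depolymerase of the centromere, had the smallest change, 0.06 (95% interval from -0.16 to 0.29).

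The kinetochore and checkpoint genes had the second lowest median of the 9 roles (0.12), and none of the 8 passed over all genes, while limma's unadjusted p was under 0.05 for 3 higher and 1 lower gene. Over all genes tested such a p was reached by 8.63% as higher and 5.8% as lower. Mad2l1, the gene of the checkpoint protein Mad2, came nearest, with 7.94, 7.87 and 7.89 against 8.22, 8.13 and 8.08. Every Gata3-deficient array was higher, and the change was 0.25 ± 0.06 (SE, adjusted p = 0.0704). Cenpf, a protein of the outer kinetochore, changed by 0.42 (adjusted p = 0.184), and Nuf2, a subunit of the Ndc80 complex that holds microtubules, by 0.43 (0.341), both on dim probe sets. Ndc80, the partner of Nuf2, read 6.26, 5.78 and 5.96 against 5.66, 6.05 and 6.04. Its groups overlapped, with a change of -0.08 (95% interval from -0.41 to 0.24). Cenpa, the histone H3 variant that marks centromeres, read 8.45, 8.40 and 8.37 against 8.15, 8.29 and 8.34. All Gata3-deficient arrays were lower, by a difference of -0.15 ± 0.06 that did not pass (adjusted p = 0.302). The motor gene Cenpe (0.12) and the checkpoint genes Bub1b (0.12) and Bub3 (0.06) had small positive changes.

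In the genes of the passenger complex, spindle midzone and cytokinesis, Birc5 had the largest change of all 48. Birc5 encodes survivin, which brings Aurora B to the centromere. It read 5.88, 5.52 and 6.11 in the Gata3-sufficient arrays and 6.56, 6.55 and 6.79 in the Gata3-deficient ones. The groups did not overlap although the Gata3-sufficient arrays were spread, and Birc5 rose 1.73-fold (0.79 ± 0.14, SE, adjusted p = 0.024; up to 0.0823 with 1 array left out). Incenp, the scaffold of the same complex, differed by 0.11 (adjusted p = 0.644). Racgap1, a subunit of centralspindlin with Kif23, read 6.49, 6.10 and 6.67 against 6.59, 6.85 and 6.94. Gata3-deficient replicate 1 overlapped the controls, and the change of 0.37 did not pass (adjusted p = 0.269). Anln (0.27), the cleavage furrow protein anillin, and Prc1 (0.23), which bundles midzone microtubules, did not pass. Ect2, the exchange factor that activates RhoA in cytokinesis, read 4.41, 4.72 and 4.54 against 4.21, 4.67 and 4.57. It was dim, and its change was -0.07 (95% interval from -0.38 to 0.23).

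All 5 spindle assembly genes had a positive change, and Stmn1 passed. Stmn1 encodes stathmin, which destabilises microtubules. It read 8.49, 8.35 and 8.69 against 8.97, 8.81 and 8.98. No array of one group reached the other, and Stmn1 rose 1.33-fold (0.41 ± 0.09, SE, adjusted p = 0.0427; up to 0.176 with 1 array left out). Nusap1, a microtubule-bundling protein, read 6.07, 6.03 and 6.14 against 6.25, 6.49 and 6.44. It did not overlap, and its change of 0.31 did not pass (adjusted p = 0.121). Hmmr (0.25), Tacc3 (0.20) and Tpx2 (0.15), which act with Aurora A and at the spindle poles, did not pass.

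Among the anaphase regulators none of the 3 measured genes passed. Limma's unadjusted p was under 0.05 for 1 higher gene, where 8.63% of all genes were higher by that measure. Ube2c, the ubiquitin-conjugating enzyme of the anaphase-promoting complex, read 5.55, 5.66 and 6.18 against 6.32, 6.51 and 6.62. The groups did not overlap, and its change of 0.69 ± 0.16 (SE) was the third largest of the 48 but missed the threshold (adjusted p = 0.0577; 0.0141 without sufficient replicate 3 and up to 0.241 without another array). Pttg1, the gene of securin, which holds separase in check, read 11.77, 10.48 and 10.06 against 11.75, 11.22 and 11.13. Sufficient replicate 1 and deficient replicate 1 were alike and high, and the change of 0.60 ± 0.36 (SE) did not pass (adjusted p = 0.51). Without sufficient replicate 1 it was 1.10 (adjusted p = 0.0168). On the other 2 probe sets of Pttg1 sufficient replicate 1 was also the highest of its group, with 9.01 and 7.87 against 7.16 and 6.70 in sufficient replicate 3. Cdc20, the activator that turns the complex on at anaphase, had a change of 0.17.

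Condensin, the ring that compacts chromosomes, was divided. Smc4, one of its ATPase subunits, read 12.72, 12.60 and 12.57 in the Gata3-sufficient arrays and 12.25, 12.33 and 12.35 in the Gata3-deficient ones. All Gata3-deficient arrays were lower, and Smc4 fell by 0.32 on the log2 scale, or 1.25-fold (SE 0.05, adjusted p = 0.0136; up to 0.061 with 1 array left out). Smc2, its ATPase partner, had a change of 0.06 (95% interval from -0.08 to 0.19). The non-ATPase subunit gene Ncapd2 read 6.21, 5.98 and 6.15 against 6.28, 6.54 and 6.43. Its groups did not overlap, and its change of 0.30 did not pass (adjusted p = 0.178). Ncaph, the kleisin subunit, changed by 0.15. These 4 condensin genes had the lowest median of the roles, 0.10. Further condensin genes were read among the other mitosis genes below and did not pass by limma. They were Ncapg2 (0.46 ± 0.12, adjusted p = 0.0818), the dim Ncapg (0.52 ± 0.19, adjusted p = 0.23) and Ncaph2 (-0.02).

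Where a gene had several probe sets, they did not always agree. Of the 25 such genes, 18 were positive on every probe set, 6 were positive on the brightest and negative on another, and Smc4 was negative on all 3 of its own (-0.34 to -0.32). The other probe set of Cks1b (0.49 ± 0.14, SE) and that of Cks2 (0.43 ± 0.08) moved as the brightest did. For Stmn1 the other probe set, not dim, changed by 0.06 ± 0.10. For Top2a (0.21), Aurkb (0.13) and Kif22 (0.12 and 0.25) the others were dim and changed less. The brightest probe sets of Aurkb, Kif22, Cks2 and Stmn1 are of the array's types that can also read related sequences, by their suffix. Some genes not called on the brightest probe set changed more on another, among them Ccna2 and Racgap1, whose other probe sets were not dim, and Kif11 and Prc1, whose others were. Ccna2 went from 5.75, 5.61 and 6.18 to 6.17, 6.52 and 6.63 there (0.59 ± 0.16), with overlap of a single array. Racgap1 went from 6.12, 6.13 and 6.14 to 6.48, 6.61 and 6.78 (0.49 ± 0.09), with none. Kif11 changed by 0.49 ± 0.15 on one of its dim others and by -0.03 ± 0.10 on the remaining one. Other genes not called changed less or turned negative on another probe set. Hmgb2 changed by 0.03 ± 0.07 on one that was not dim, and Bub3 by -0.06, -0.03 and -0.08 on its others, the last dim. On dim ones Cenpf changed by 0.04 and Nusap1 by -0.08.

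**Figure D3:**
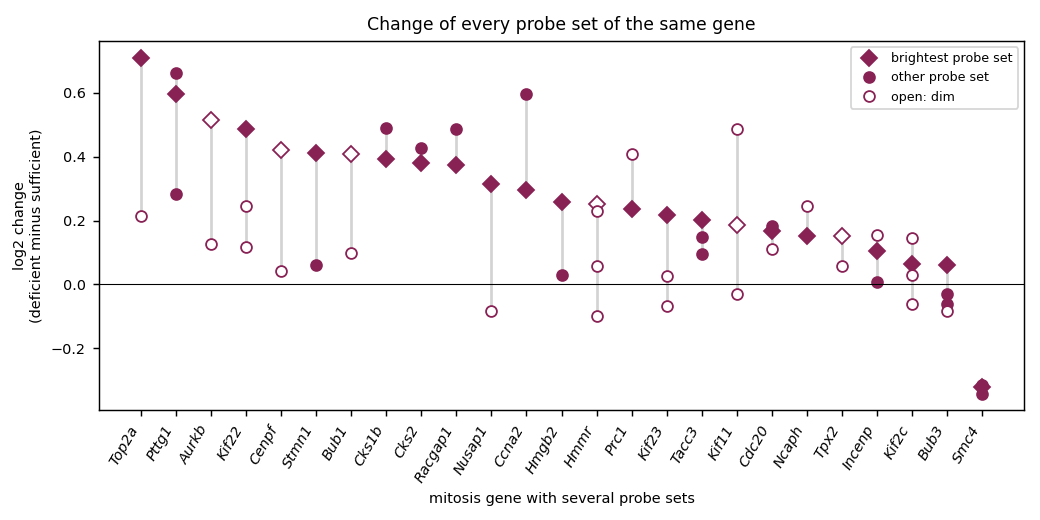
Log2 change of every probe set of the 25 mitosis genes that have several (diamond, the brightest; circle, another; open, dim). Lines join probe sets of 1 gene; those of Smc4 coincide near -0.32, while those of Top2a and Stmn1 lie apart.

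The genes were also summarised as an array score, the mean over the 48 genes of each value minus that gene's mean over the 6 arrays. The score was -0.13, -0.21 and -0.06 in sufficient replicates 1, 2 and 3 and 0.07, 0.15 and 0.19 in deficient replicates 1, 2 and 3. The groups did not overlap, and their means differed by 0.27 (-0.13 ± 0.08 against 0.13 ± 0.06, SD, n = 3 each). Without the 10 called genes the difference was 0.21, and the scores still did not overlap. By role, the difference ran from 0.05 in condensin and 0.15 in kinetochore and checkpoint genes, whose array scores overlapped, to 0.55 in chromosome structure. The kinases (0.29), cyclins and Cdk1 activators (0.30), passenger and midzone genes (0.28), spindle assembly genes (0.27) and kinesins (0.25) lay between, all without overlap. The roles with few genes are set by single ones, such as Pttg1 and Ube2c in the anaphase regulators (0.48). The score gets no test of its own.

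The order of the arrays was counted over the 48 genes. The same counts were not made over all genes, so whether this order is particular to the mitosis genes was not tested. Sufficient replicate 2 held the lowest of the 6 values for 21 of the 48 genes, and deficient replicate 3 the highest for 21 and the lowest for 0. Within the Gata3-deficient group replicate 1 was the lowest for 30 genes. Its values lay above the Gata3-sufficient mean for 37 genes, those of replicate 2 for 44 and those of replicate 3 for 46.

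**Figure D4:**
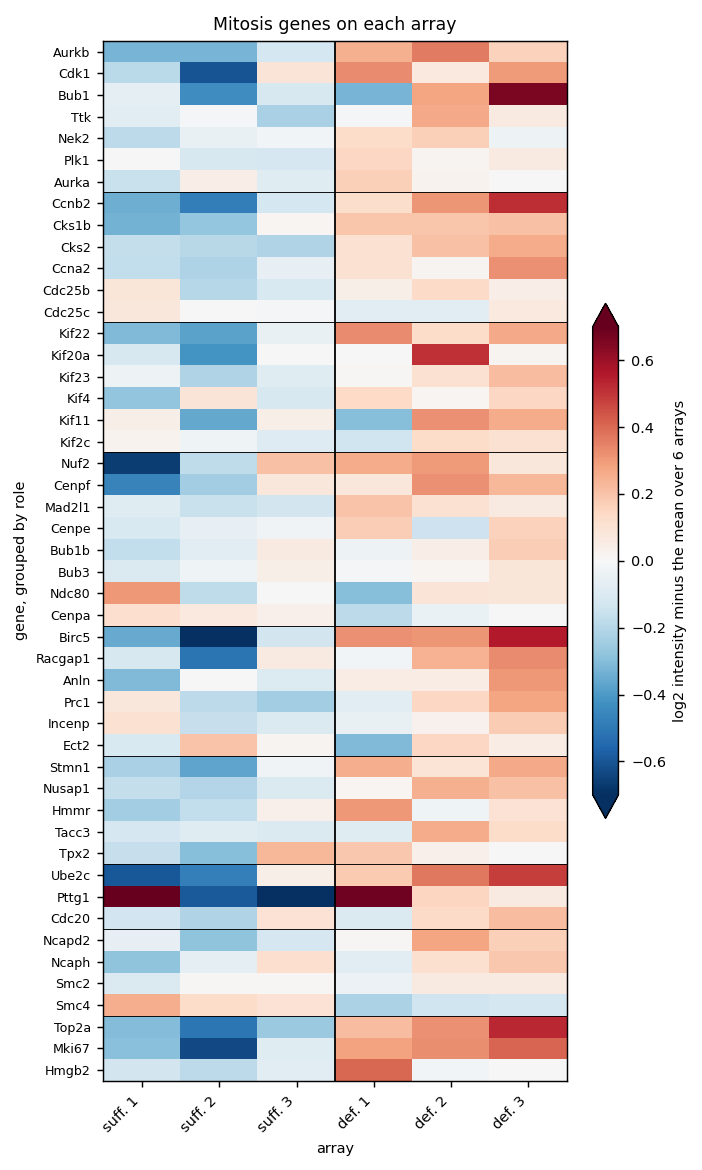
Log2 intensity of each of the 48 mitosis genes on each array minus its mean over the 6 arrays, grouped by role (colour limits ±0.7). Sufficient replicate 2 is the bluest column and deficient replicate 3 the reddest; Pttg1 departs from the rest, with sufficient replicate 1 high.

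Genes with related roles were read beside these. Of 35 other measured genes of mitosis, 25 had a positive change (71.4%, median 0.13, against 53% and 0.0078 for all genes). Limma's unadjusted p was under 0.05 for 10 higher and 0 lower genes, where 8.63% of all genes were higher by that measure and 5.8% lower. None passed over all genes. Cdca3, a mitotic entry factor, came nearest (0.63 ± 0.14, SE, adjusted p = 0.0525; -0.0025 on the probe set used when those for several transcripts were left out), followed by the dim kinetochore gene Cenpk (0.47 ± 0.12, adjusted p = 0.0801). Of 23 S phase genes 21 had a positive change (91.3%, median 0.11) and 2 rose (8.7%, against 1.44% of all genes). Rrm2, the regulated subunit of ribonucleotide reductase, read 6.98, 6.85 and 7.19 against 7.48, 7.59 and 7.64 and rose by 0.56 ± 0.09 (adjusted p = 0.0185; up to 0.0849 with 1 array left out). That call was lost with the mean of its probe sets (adjusted p = 0.094) and without suffixed probe sets (0.107). Uhrf1, which maintains DNA methylation at the replication fork, rose by 0.53 ± 0.11 (adjusted p = 0.0427; up to 0.176 with 1 array left out). With the mean of its probe sets the change was 0.30 and did not pass (adjusted p = 0.113).

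Cohesin is the ring that holds sister chromatids together and also shapes interphase chromatin. All 8 measured genes of cohesin and its regulators had a negative change (median -0.11), and none passed, while limma's unadjusted p was under 0.05 for 0 higher and 3 lower genes, where 5.8% of all genes were lower by that measure. Nipbl, the cohesin loader, read 9.24, 9.17 and 9.26 against 8.92, 9.05 and 9.07 (-0.21 ± 0.06, SE, adjusted p = 0.0925). Stag2, a cohesin subunit, differed by -0.14 ± 0.04 (adjusted p = 0.151). In both, all Gata3-deficient arrays were lower. The anaphase-promoting complex had a median of 0.01 over 12 genes and none passed by limma. The unadjusted p of limma was under 0.05 for 2 higher and 0 lower genes, where 8.63% of all genes were higher by that measure. Anapc5 (0.17, adjusted p = 0.12) and Cdc16 (0.14, adjusted p = 0.231) had the smallest p of the complex.

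Of 13 measured genes of the regulators that act on these promoters, 3 had a positive change (23.1%, against 53% of all genes) and 10 a negative one. Of the 13, 1 fell (7.69%, against 0.766% of all genes). Rbl2, the gene of p130, a pocket protein of the DREAM complex that represses cell cycle genes in resting cells, read 9.25, 9.22 and 9.18 against 8.87, 8.85 and 8.92. The groups were tight and did not overlap, and Rbl2 fell by 0.33 on the log2 scale (SE 0.05, adjusted p = 0.00967; up to 0.061 with 1 array left out). Nfya, the DNA-binding subunit gene of NF-Y, differed by -0.30 ± 0.09 (adjusted p = 0.121), and 0.09 on the probe set used when those for several transcripts were left out. Foxm1, an activator of mitosis genes, had a change of 0.08 (adjusted p = 0.803). Of 11 CDK inhibitors and quiescence genes none passed. Limma's unadjusted p was under 0.05 for 2 higher and 0 lower genes, where 8.63% of all genes were higher by that measure. The 2 higher genes were Cdkn2c, the gene of the inhibitor p18, with 7.26, 6.94 and 6.87 against 7.42, 7.50 and 7.52 (0.45 ± 0.10, adjusted p = 0.0525), and the dim Cdkn2b (0.42 ± 0.14, adjusted p = 0.17).

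**Figure D5:**
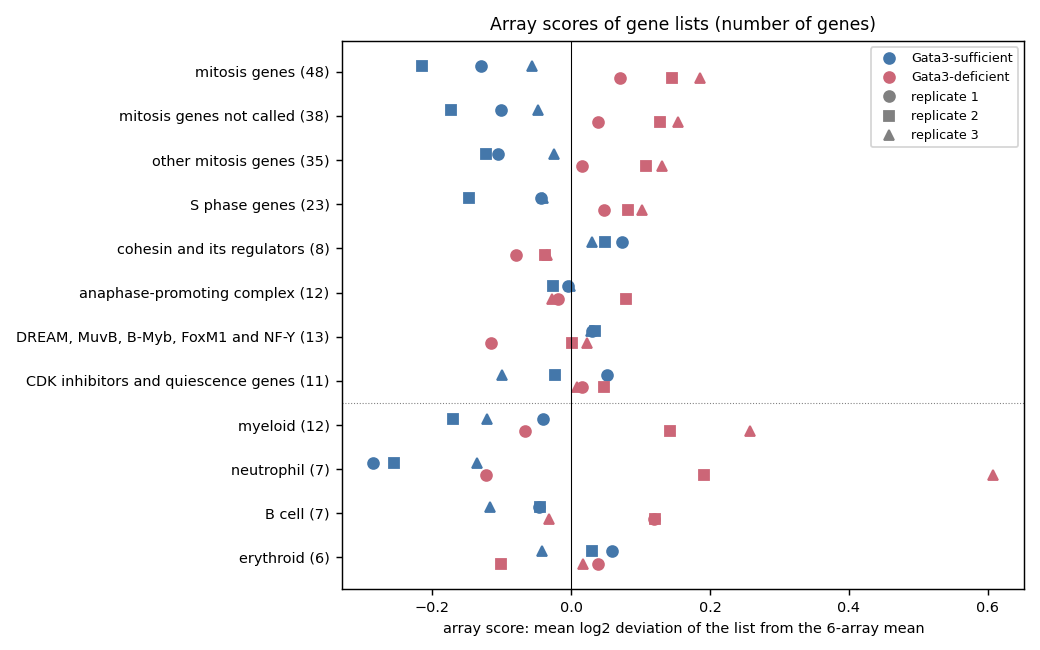
Array scores (mean log2 deviation from the 6-array mean) of the mitosis genes, related gene lists and markers of other cells; colours are groups, symbols replicates, and numbers in brackets genes. The mitosis scores of the groups do not overlap, the cohesin scores lie in the opposite order, and myeloid and neutrophil scores are highest in deficient replicates 2 and 3.

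Markers of other cells that a sort can carry over were read beside these genes, and their part in the result was not tested. Of 12 myeloid markers 10 had a positive change (83.3%, against 53% of all genes). Their array score was -0.04, -0.17 and -0.12 in sufficient replicates 1, 2 and 3 and -0.07, 0.14 and 0.26 in deficient replicates 1, 2 and 3. All 7 measured neutrophil markers had a positive change and all were dim, with scores of -0.29, -0.26 and -0.14 against -0.12, 0.19 and 0.61. None of these passed by limma, while its unadjusted p was under 0.05 for 3 higher myeloid and 2 higher neutrophil markers and 0 lower ones. Over all genes tested, 8.63% were higher by that measure and 5.8% lower. Lyz2, the lysozyme of macrophages and neutrophils, read 6.54, 5.79 and 6.19 against 6.55, 7.44 and 7.60 (1.02 ± 0.26, SE, adjusted p = 0.0849). The signalling adaptors Fcer1g (0.31 ± 0.11, adjusted p = 0.206) and Tyrobp (0.48 ± 0.17, adjusted p = 0.215) and the receptor Csf1r (0.33 ± 0.15, adjusted p = 0.381) were not dim either. The remaining myeloid markers that were not dim changed less: Mpeg1 by 0.16, Cst3 by 0.07 and Ctss by -0.01. Of the neutrophil genes S100a9 differed by 1.10 ± 0.31 (adjusted p = 0.113) and Ngp by 0.74 ± 0.27 (adjusted p = 0.22). In Lyz2, Fcer1g, S100a9 and Ngp every Gata3-deficient array was higher. Itgam and Cd68 were dim and differed by -0.10 and 0.02. Of 7 B cell markers 5 had a positive change (71.4%, against 53% of all genes). Only Cd22 was called (14.3%, against 1.44% of all genes as higher). It rose 2.22-fold (1.15 ± 0.11, adjusted p = 0.00152 by limma), without overlap, a larger change than that of any mitosis gene. Cd79b, not dim, differed by 0.23 ± 0.09 (adjusted p = 0.258 by limma), and Ms4a1, not dim either, by -0.40. Pax5, Cd79a, Blk and Fcrla were dim, with changes from -0.20 to 0.15. Of 6 measured germinal centre B and plasma cell genes 4 had a positive change and none passed by limma. The plasma cell gene Jchain differed by -0.78 (adjusted p = 0.179), with overlap. The others changed less: Fas by 0.16, Irf4 by 0.12, Prdm1 by 0.02, Gcsam by 0.01 and Sdc1 by -0.08. Of the erythroid markers 2 of 6 had a positive change and 5 were dim. Of the thymocyte genes Rag1, Rag2, Ptcra and Dntt were dim, with changes from -0.37 to 0.03. Of 7 measured NK and CD8 T cell markers 4 had a positive change and 3 a negative one, and none passed by limma. Their array scores were 0.04, 0.09 and 0.03 against -0.06, -0.06 and -0.03. In Klrk1 (-0.57 ± 0.17, adjusted p = 0.121) every Gata3-deficient array was lower, 14.3% of that list against 8.51% of all genes.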

How the data were processed

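Total RNA of sorted Treg cells was made into biotin-labelled cRNA from 6 ug on Affymetrix arrays, per the labels' protocols. The authors deposited 1 log2 intensity per probe set and array, made with RMA (background correction, normalization across arrays and a summary over probes) according to the submitters' processing notes, where no version stands. Of 22690 probe sets, 20393 had 1 gene in the platform's annotation, 691 had several and the rest were unlisted. Only those with 1 gene were used.

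The comparison used limma 3.58.1 under R 4.3.3, with moderated variances that follow intensity, two-sided and unpaired, over all 12394 genes, with Benjamini-Hochberg adjustment and a threshold of 0.05. Since 3 arrays against 3 allow no exact permutation p under 0.1, calls rest on the spread that limma shares between genes. No filter on dim genes was applied. Errors are SDs over 3 arrays or limma's SE, and intervals are 95%. The fit was tested on simulated data. Same-numbered arrays deviated together little (r = 0.04, -0.02 and 0.07, against -0.06 to 0.02 for arrays of unlike number). Numbers were therefore not taken to pair mice.

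The genes, their roles and all lists were chosen with earlier results of these data known. Named genes were those past the threshold, the 2 with the smallest p in each role or related list, every measured mitosis gene with a negative change, Gata3 and Foxp3. Genes of the same list named beside these were chosen to account for every member or after their values were seen. The alternatives were the replicate block, no trend, robust variance, dim genes left out, a fresh quantile normalization, centring on medians, weights for array quality, other probe set choices, a threshold of 0.1 and each array left out. Figures were drawn with matplotlib 3.10.9.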

Additional observations from a re-analysis of the deposited data

How the results depend on the processing

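With the replicate number as a block, 368 of all genes were called, against 274 without it. Of the mitosis genes 9 were higher and 1 lower, as without the block. Aurkb lost its call (adjusted p = 0.0567 by limma) and Ube2c gained one (0.0139). This pairing is by number only. Without the intensity trend 54 of all genes, 1 higher and 0 lower mitosis genes were called. Array quality weights called 585 genes and the threshold of 0.1 called 525. The mean of all probe sets gave 5 higher mitosis genes. Leaving out probe sets whose suffix marks several transcripts or related sequences gave 3 of 36 measured genes; Top2a (0.21, adjusted p = 0.504), Kif22 (0.12, 0.655), Stmn1 (0.06, 0.844) and Cks1b (0.49, 0.127) were measured and lost their calls. With each array left out in turn, 62 to 270 genes, 1 to 10 higher and 0 to 1 lower mitosis genes were called, and the score difference was 0.23 to 0.31. It was 0.22 to 0.29 under the other alternatives run on it. Between 42 and 45 of 48 mitosis genes were positive where 48 were measured, 28 of 31 with dim genes left out and 32 of 36 without suffixed probe sets. Signs turned only for genes that were not called. Ndc80 was 0.0534 with array quality weights and -0.193 to 0.0481 with 1 array left out. Ect2 was -0.164 to 0.0626 and Foxp3 -0.0225 to 0.0961 with 1 array left out. With suffixed probe sets left out, Cdca3 was -0.0025 and Nfya 0.0873. The causes were not tested. No scanner file was used, so signal over background was not read, and 17 of the 48 genes were dim.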
